A study of Mus musculus with 4 samples.

Results

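Hypoxia response and glycolysis genes were followed in mouse mesenchymal stem/progenitor cells (MSPC), stromal cells that attach and divide when marrow is put in culture, from wild-type (WT) and Asxl1-/- mice. The set was a list of 37 gene symbols, picked by name and with no threshold on their values, and each matched 1 row of the deposited expression table, which holds 23997 symbols in all. It falls into 22 genes of sugar uptake, glycolysis and lactate handling and 15 other genes of the hypoxia response. The series asks how loss of Asxl1, a chromatin regulator that partners the BAP1 deubiquitinase, alters these stromal cells. Each group had 2 RNA sequencing libraries, named here replicates 1 and 2. All cells were on the C57BL/6 strain background, at passages 5 to 10, and had grown in MesenCult with a 20% supplement, with replating whenever they covered 80 to 90% of the dish. The oxygen level of the cultures, the age of the mice, how the Asxl1 allele was made and whether it was lost in all tissues are not stated in the labels. The libraries carry different numbers in their titles, but whether these stand for animals or cultures is not stated either. A p-value here thus speaks only of the spread between these samples, which may be technical.

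Cells sense oxygen through the HIF system. Prolyl hydroxylases of the Egln family use oxygen to mark the alpha subunits Hif1a and Epas1, and the Vhl ubiquitin ligase then has the marked protein destroyed. When oxygen is short the alpha subunits persist, pair with Arnt, bind a short DNA core in promoters and enhancers and raise the transcripts of glucose transporters, glycolytic enzymes and mitophagy genes. This control acts largely on the protein, so the transcript of Hif1a is not a measure of its activity. Marrow is a low-oxygen tissue, and stromal progenitors are known for drawing much of their energy from glycolysis.

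Expression is given as FPKM, fragments scaled to transcript length and library size. FPKM summed to between 497340 and 703730 per library, 10951 to 11363 rows per library reached 1 FPKM, and the number of reads is unknown. Asxl1 itself measured 14.6 and 11.2 FPKM in WT and 0.273 and 0.312 in Asxl1-/-, as the labels have it. Of 16 macrophage markers none was at 0 in every library. Their summed level was 7.52 and 548 FPKM in WT replicates 1 and 2 and 9.27 and 369 in Asxl1-/- replicates 1 and 2, so macrophage RNA separated the replicates and not the genotypes. In replicate 1 of both groups the pan-leukocyte gene Ptprc was at 0.0152 (WT) and 0.0074 (Asxl1-/-) FPKM. The 12 stromal markers summed to 5541 to 8391 FPKM, and 7 lymphoid and erythroid markers to at most 0.322. Some single stromal markers differed more than their sum. Pdgfra was at 80.9 and 4.78 FPKM in WT and 58.8 and 63.0 in Asxl1-/-, and Ly6a ranged from 70.0 to 1059. Col1a1 ranged only from 1298 to 2043, and Lepr was at most 0.0426 in any library. The 8 endothelial markers summed to at most 0.641 FPKM in 3 libraries and to 8.15 in Asxl1-/- replicate 2, where Cdh5 was at 7.11 and Tek at 0.821. The 16 proliferation markers summed to 672 and 434 FPKM in WT and to 257 and 237 in Asxl1-/-, and all 16 stood lower in both Asxl1-/- libraries. That difference runs with the genotype, as does any gene below whose groups lie apart, and its part in them was not tested. In bulk RNA, fewer cells of a type and less RNA per cell cannot be told apart.

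**Figure D1:**
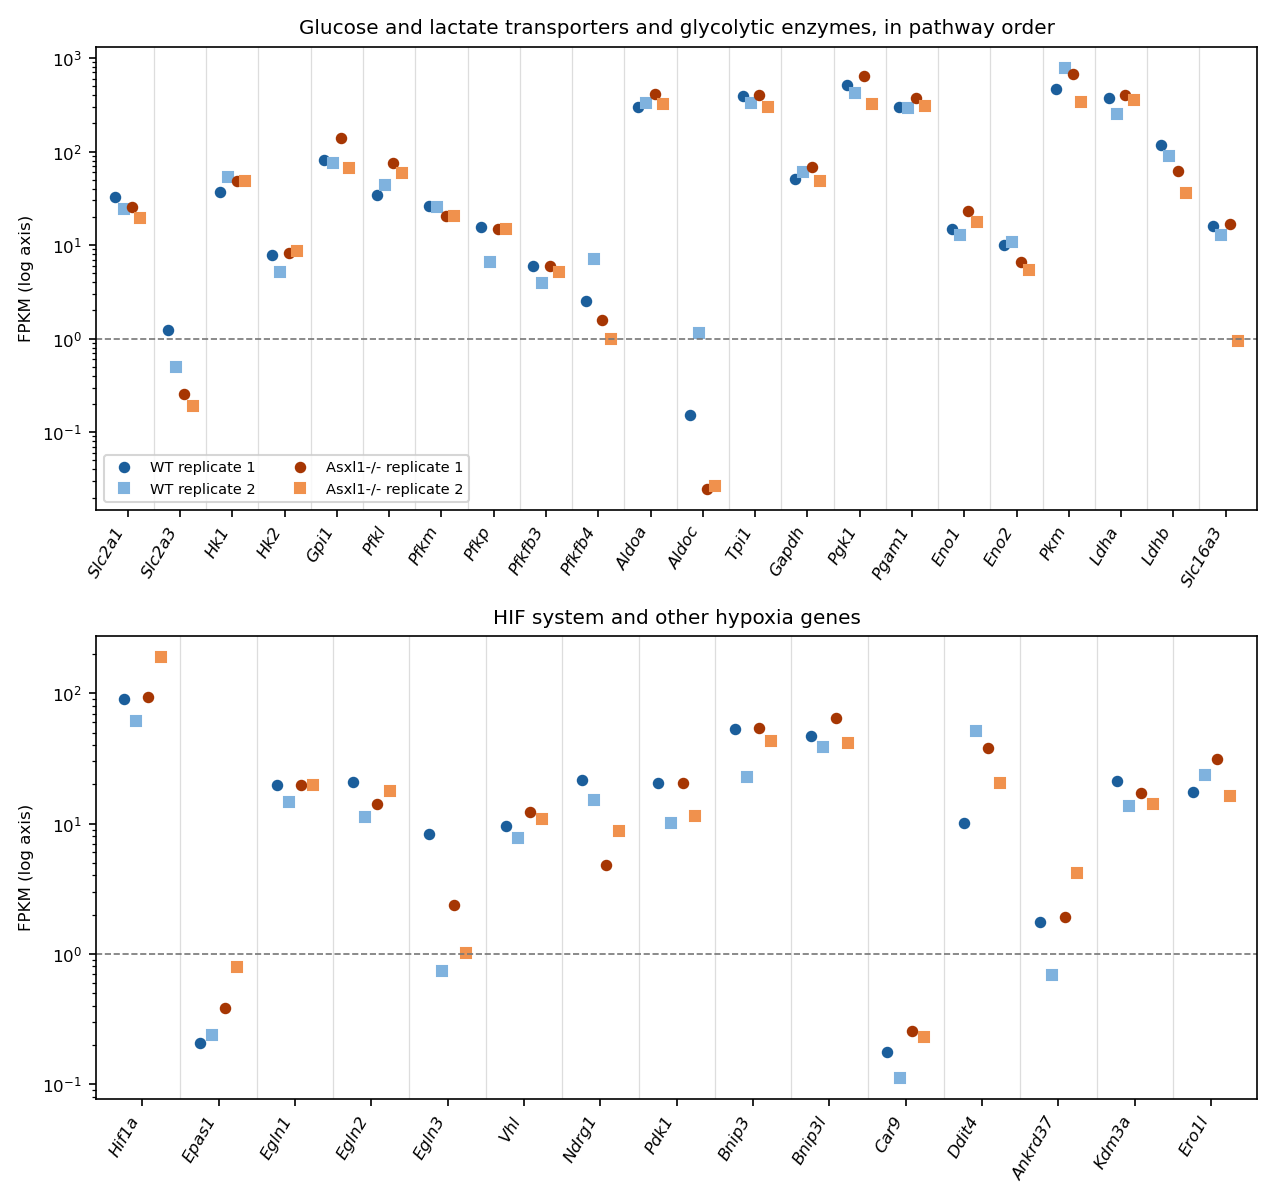
FPKM of each of the 37 genes on a log axis, 1 point per library, with glycolytic genes above in pathway order and the HIF system and other hypoxia genes below. The dashed line is 1 FPKM. Core enzymes such as Pgk1, Pkm and Aldoa lie at the top of the axis, Aldoc, Slc2a3, Epas1 and Car9 near or below the line, and Slc16a3 stands at 0.948 in Asxl1-/- replicate 2 alone.

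No gene of the set passed the adjusted test between the genotypes. Of the 37 genes, 33 averaged 1 FPKM or more across the 4 libraries and were tested with limma on log2(FPKM + 1), which understates the change of low genes. At a Benjamini-Hochberg adjusted p under 0.05, 0 of the 33 passed, where 3 of 11481 genes did (0.0261%). Asxl1 itself did not pass (log2 fold change -3.41, limma adjusted p = 0.215). Not passing therefore does not show that a gene is unchanged. At an unadjusted limma p under 0.05 there were 4, namely Pfkl on the higher side and Ndrg1, Ldhb and Eno2 on the lower, where 7.92% of all genes reached it, 2.51% higher and 5.41% lower. The authors' deposited Cuffdiff results mark as significant 0 of the 36 members they test (0.939% of all genes), and in them 3 have a p under 0.05 (7.34% of all genes), which are Ndrg1, Ldhb and Pfkfb4. The groups lay apart in 12 of the 33 genes against 40.8% of all genes. Both Asxl1-/- libraries were above both WT libraries in 7 (21.2% against 15.6% of all genes) and below them in 5 (15.2% against 25.2%). These shares are not far from the background.

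Medians of both gene groups were above 0. The log2 fold change (Asxl1-/- minus WT) was above 0 for 11 of 20 tested glycolytic genes, with a median of 0.08. It was above 0 for 10 of 13 other hypoxia genes, with a median of 0.21. Over all genes tested the median was -0.07 and 43.2% were above 0. Neither median was stable to the choice of libraries. Without Asxl1-/- replicate 1 the medians were -0.21 for the glycolytic and -0.04 for the other genes, and without WT replicate 2 they were -0.03 and 0.00. Rescaling of the libraries moved the share of higher genes among all those with an unadjusted limma p under 0.05 from 31.7% to 43.3% (median ratio scaling), 42.9% (quantile normalization), 36.8% (equal sums over rows of at least 300 bp) or 42.5% (chromosome medians removed). Under these 4 settings the median over all genes lay between -0.04 and 0.02.

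**Figure D2:**
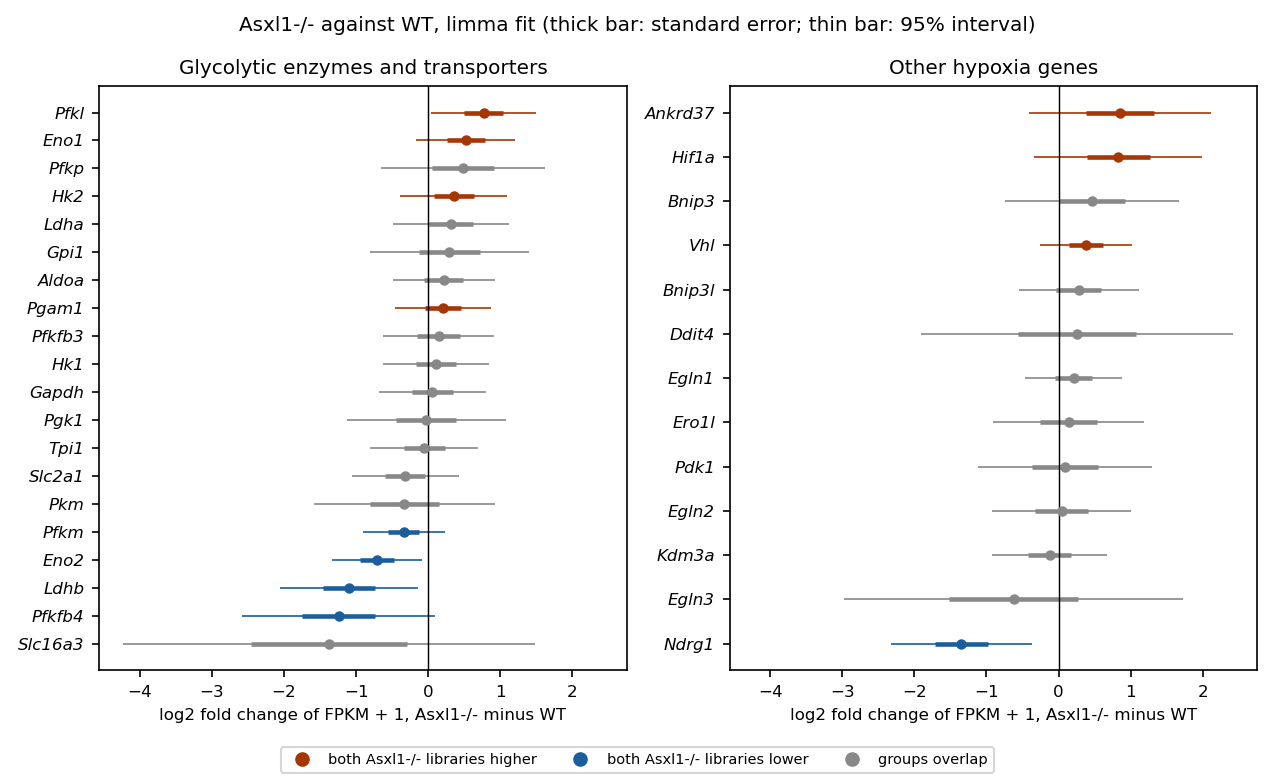
Log2 fold change of FPKM + 1, Asxl1-/- minus WT, for the 33 tested genes, sorted within the glycolytic (left) and other hypoxia genes (right). Thick bars are the standard error and thin bars the 95% interval of the limma fit, and colour shows whether the groups lie apart. Intervals of Pfkl, Eno2, Ldhb and Ndrg1 leave out 0, before any adjustment.

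Among the alpha subunits Hif1a, the broadly expressed one, was at 90.3 and 61.1 FPKM in WT and 93.4 and 189 in Asxl1-/-. Only Asxl1-/- replicate 2 stood well above the rest, and Asxl1-/- replicate 1 lay just above WT replicate 1. Its log2 fold change came to 0.83 ± 0.44 (standard error; limma adjusted p = 0.672), and it was 0.33 without Asxl1-/- replicate 2 and 1.34 without Asxl1-/- replicate 1. Epas1, the HIF-2 alpha subunit of endothelial and some stromal cells, was at 0.206 and 0.239 FPKM in WT and 0.386 and 0.786 in Asxl1-/-. It was too low to enter the test. FPKM are per length, so the 2 levels can be compared, and Hif1a made up 99.6 to 99.8% of their summed FPKM in every library.

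The hydroxylases that mark HIF for destruction overlapped between the genotypes. Egln1, the main oxygen sensor of most cells, was at 19.8 and 14.6 FPKM in WT and 19.8 and 19.9 in Asxl1-/-. Its log2 fold change of 0.21 had a 95% interval of -0.46 to 0.88, so a difference of either sign within it remained compatible with these libraries. Egln2, the family member least bound to hypoxia, was at 20.8 and 11.3 FPKM in WT and 14.0 and 17.9 in Asxl1-/-, with a log2 fold change of 0.04. Egln3, itself a strong HIF target, varied most, at 8.34 and 0.737 FPKM in WT and 2.38 and 1.02 in Asxl1-/-. The WT libraries bracketed both Asxl1-/- libraries there, 11.3-fold apart from each other, and Egln3 was 17.04% of the family's FPKM in WT replicate 1 against 2.6 to 6.6% in the other libraries. Vhl, which recognises the hydroxylated alpha subunit, was at 9.64 and 7.80 FPKM in WT and 12.4 and 10.9 in Asxl1-/-. The groups lay apart, but the log2 fold change of 0.38 (standard error 0.24) had a 95% interval of -0.25 to 1.02 (limma adjusted p = 0.714). With each library's chromosome medians removed it was 0.60 and under the unadjusted threshold.

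At the entry of glycolysis, Slc2a1, the basal glucose transporter, was at 32.3 and 24.3 FPKM in WT and 25.5 and 19.4 in Asxl1-/-, with overlapping groups. Slc2a3, a high-affinity transporter of neurons and white blood cells, was low throughout and lower in both Asxl1-/- libraries, at 1.23 and 0.504 FPKM against 0.256 and 0.191. It was not tested, since its mean was under 1 FPKM. Hk1, the constitutive hexokinase, was at 37.2 and 54.0 FPKM in WT and at 48.3 in each Asxl1-/- library. Hk2, the hexokinase that HIF and insulin induce, was at 7.82 and 5.17 FPKM in WT against 8.15 and 8.74, a log2 fold change of 0.36 with a standard error of 0.28. The Hk2 share of the summed Hk1 and Hk2 FPKM was 17.4 and 8.7% in WT and 14.4 and 15.3% in Asxl1-/-, so the groups overlapped. Gpi1, which turns glucose 6-phosphate into fructose 6-phosphate, stood out in 1 library, at 140 FPKM in Asxl1-/- replicate 1 against 66.3 to 81.4 in the other 3.

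Phosphofructokinase catalyses the committed step, and its subunits had no common direction. Pfkl, the liver-type subunit found in many tissues, was at 34.2 and 44.1 FPKM in WT and 76.3 and 58.6 in Asxl1-/-, means of 39.2 ± 6.94 and 67.5 ± 12.5 (SD, n = 2 each). Both Asxl1-/- libraries were above both WT libraries. This gave a log2 fold change of 0.77 ± 0.28 (standard error; limma adjusted p = 0.617). Pfkl lies on chromosome 10 (mm10, 77986949 to 78009796), whose genes had median deviations of -0.29 and -0.03 in WT and 0.04 and 0.24 in Asxl1-/-. With each library's chromosome medians removed its log2 fold change was 0.46, no longer under the unadjusted threshold. Pfkm, the muscle-type subunit, had the closest replicates of the tested members, at 26.5 and 25.8 FPKM in WT against 20.3 and 20.6, a log2 fold change of -0.34 with a standard error of 0.21 (limma adjusted p = 0.714). Pfkp, the platelet-type subunit, was at 15.8 and 6.65 FPKM in WT and 14.8 in each Asxl1-/- library. Within a library, where scaling cancels, Pfkl made up 44.8 and 57.6% of the phosphofructokinase FPKM in WT and 68.5 and 62.4% in Asxl1-/-. The Pfkm share was 34.6 and 33.7% in WT and 18.2 and 21.9% in Asxl1-/-. Neither share overlapped between the groups, and a difference between chromosomes does not cancel in a share. The FPKM of 40.8% of all genes tested did not overlap either. No such figure was computed for isoform shares, which are tied to each other within a family. The shares were not tested, since with 2 libraries against 2 an exact two-sided permutation test cannot give a p below 0.333.

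The enzymes that set the level of fructose 2,6-bisphosphate, the activator of phosphofructokinase, differed from each other. Pfkfb3, the isoform of cycling cells, was at 5.99 and 3.94 FPKM in WT and 5.91 and 5.10 in Asxl1-/-. Pfkfb4, a HIF-inducible isoform, was at 2.52 and 7.14 FPKM in WT and 1.57 and 0.997 in Asxl1-/-. WT replicate 2 lay far above the other 3 libraries, and the groups did not overlap. As a log2 fold change this was -1.24 ± 0.51 (standard error; limma adjusted p = 0.632), and -0.64 without WT replicate 2. Its chromosome 9 genes had a median deviation of 0.30 in that library, and with chromosome medians removed the value was -1.17 and under the unadjusted threshold.

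The trunk of the pathway was abundant, and its genotypes were mostly not separated at this precision. Aldoa, the main aldolase, was at 298 and 329 FPKM in WT and 413 and 320 in Asxl1-/-. Tpi1, which interconverts the 3-carbon sugars, was at 388 and 327 FPKM in WT and 397 and 298 in Asxl1-/-. Pgk1, which makes the first ATP of the pathway, was at 514 and 421 FPKM in WT and 645 and 324 in Asxl1-/-. Log2 fold changes were 0.22 for Aldoa, -0.05 for Tpi1 and -0.02 for Pgk1, whose 95% interval ran from -1.12 to 1.07, and the sign of Tpi1 and Pgk1 turned with the scaling. Pgam1, the phosphoglycerate mutase, was at 295 and 293 FPKM in WT and 374 and 308 in Asxl1-/-, apart but by a log2 fold change of 0.21 with a standard error of 0.25. Gapdh was at 50.8 and 60.3 FPKM in WT and 68.4 and 48.8 in Asxl1-/-, below its neighbours Tpi1 and Pgk1 in every library. Gapdh has many processed pseudogenes, and how reads of such copies were counted is not stated, so its level is uncertain. Aldoc, the brain aldolase, was barely present, at 0.154 and 1.15 FPKM in WT and 0.025 and 0.0269 in Asxl1-/-.

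Of 3 enolase rows (Eno1, Eno1b and Eno2), that of a near-identical copy of Eno1 held most of the FPKM. Eno1, the main enolase gene, was listed at only 15.0 and 12.7 FPKM in WT and 23.3 and 17.6 in Asxl1-/-. A retrocopy listed as Eno1b was at 266 and 214 FPKM in WT and 389 and 253 in Asxl1-/-. It held 90.1 to 92.9% of the FPKM of the 3 rows. How reads shared by such copies were assigned is not stated, so the level of either row is uncertain. The Eno1 row gave a log2 fold change of 0.52 with a standard error of 0.26 (limma adjusted p = 0.651), and its groups lay apart. With chromosome medians removed it was 0.77 and under the unadjusted threshold. The Eno1b row overlapped between the groups (log2 fold change 0.39, standard error 0.33). Eno1 and Eno1b summed to 281 and 226 FPKM in WT and 412 and 271 in Asxl1-/-, so the groups of the sum overlapped too. Eno2, the neuronal enolase that hypoxia also induces, went the other way, at 9.96 and 10.8 FPKM in WT and 6.52 and 5.45 in Asxl1-/-. The Asxl1-/- values were the 2 lowest of the 4, a log2 fold change of -0.71 ± 0.23 (standard error; limma adjusted p = 0.596). With chromosome medians removed it was -0.50 and no longer under the unadjusted threshold. The Eno2 share of the 3 enolase rows was 3.42 and 4.57% in WT and 1.56 and 1.97% in Asxl1-/-.

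At the end of the pathway Pkm, the pyruvate kinase of most tissues, was at 468 and 780 FPKM in WT and 682 and 339 in Asxl1-/-. Each group held a high and a low library, and the log2 fold change of -0.33 had a 95% interval of -1.59 to 0.93. Pkm lies on chromosome 9, where the 4 library medians in the same order were -0.25, 0.30, 0.04 and -0.11. Pkm itself deviated by -0.20, 0.53, 0.34 and -0.67. The 2 highest libraries were the same, but the lowest was not. With chromosome medians removed the log2 fold change of Pkm was -0.26, and the part of the chromosome was not tested.

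Lactate dehydrogenase is built from the products of Ldha and Ldhb. Ldha, the form that HIF induces and that favours lactate, was at 371 and 249 FPKM in WT and 401 and 359 in Asxl1-/-, with overlapping groups and a log2 fold change of 0.32 (standard error 0.31, limma adjusted p = 0.812). Ldhb, the heart form that favours pyruvate, was at 117 and 89.4 FPKM in WT and 62.1 and 35.8 in Asxl1-/-, means of 103 ± 19.4 and 48.9 ± 18.6 (SD, n = 2 each). Neither Asxl1-/- library reached the lower WT library. The log2 fold change of Ldhb was -1.10 with a standard error of 0.36 (limma adjusted p = 0.596), and from -1.49 to -0.71 with 1 library left out. With chromosome medians removed it was -0.89 and no longer under the unadjusted threshold. Ldhb was 23.97 and 26.4% of the summed Ldha and Ldhb FPKM in WT and 13.4 and 9.1% in Asxl1-/-. The groups of this share did not overlap, and the share was not tested.

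The promoters of this pair are shown because the Ldha run holds more copies of the DNA core of HIF than the Ldhb run. The runs are the 250 bases before the RefSeq start site (build GRCm38.p6), 5′ to 3′ on the gene's strand, with each match to ACGTG or GCGTG on either strand in capitals. The Ldha run is chr7:46845554-46845803 on the plus strand and the Ldhb run is chr6:142507958-142508207 on the minus strand.
Ldha: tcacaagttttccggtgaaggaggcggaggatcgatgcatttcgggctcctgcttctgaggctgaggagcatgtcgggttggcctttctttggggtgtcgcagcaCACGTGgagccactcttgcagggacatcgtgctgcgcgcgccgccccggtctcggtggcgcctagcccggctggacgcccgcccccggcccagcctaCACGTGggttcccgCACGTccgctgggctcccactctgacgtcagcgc
Ldhb: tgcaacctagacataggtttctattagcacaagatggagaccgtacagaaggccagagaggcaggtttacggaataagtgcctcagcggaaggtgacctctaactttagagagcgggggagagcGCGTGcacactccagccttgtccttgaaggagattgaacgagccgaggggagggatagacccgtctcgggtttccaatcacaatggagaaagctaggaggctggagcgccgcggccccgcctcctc
The Ldha run holds 5 matches, 4 of them as 2 CACGTG palindromes that count on both strands, and they begin between 145 and 34 bases before the start. The Ldhb run holds 1, which begins 126 bases before it. RefSeq windows of 300 bases, from 250 before to 50 after a start, were found for 33 of the 37 genes, Ero1l through its later symbol Ero1a. In the window nearest the deposited gene start, 26 of the 33 held a match (78.8%), 15 of 21 glycolytic and 11 of 12 other genes, against 43.8% of all 32851 windows. Member windows were rich in CG dinucleotides, with a median of 24 against 7, and of all windows within 2 of that median 72.5% held a match. The Ldha window held 30 CG dinucleotides and the Ldhb window 17, so the pair differed in this as well. A match is a string of letters and not a binding site.

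**Figure D3:**
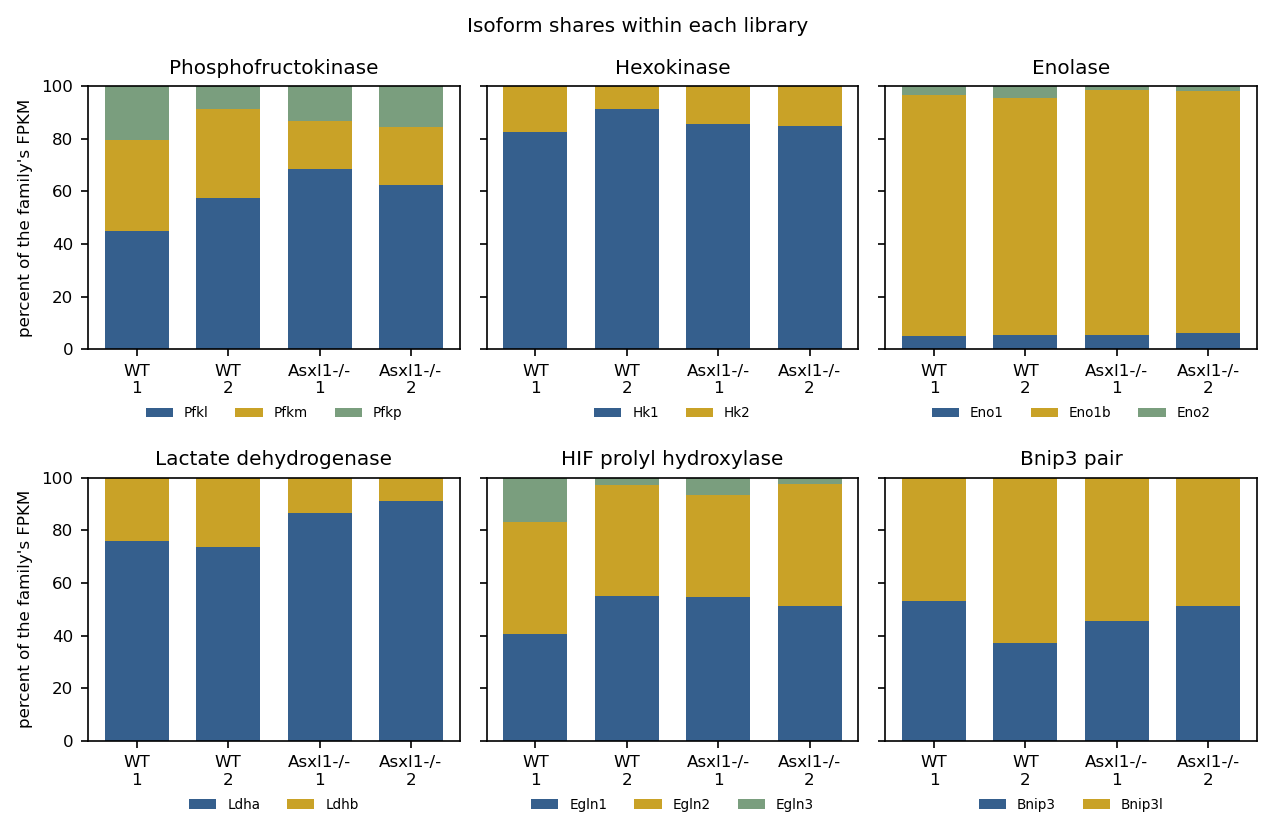
Share of each isoform in the summed FPKM of the isoforms shown for its family, as stacked bars in percent, 1 bar per library. Shares of Pfkl and Ldha were higher, and those of Pfkm, Ldhb and Eno2 lower, in both Asxl1-/- libraries, while the hexokinase, prolyl hydroxylase and Bnip3 shares overlapped. Most FPKM of the enolase rows shown stood in the Eno1b row.

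Lactate export differed in 1 library. Slc16a3 (MCT4), the HIF-induced lactate exporter, was at 15.9 and 12.9 FPKM in WT and 16.9 in Asxl1-/- replicate 1, but at 0.948 in Asxl1-/- replicate 2, a 17.8-fold gap between replicates of 1 genotype. The log2 fold change of -1.38 had a standard error of 1.08, and it was 0.22 without Asxl1-/- replicate 2. The same library had the highest Hif1a.

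Among the other targets of hypoxia, Ndrg1 had the smallest p of the set. This stress-responsive gene, which HIF induces and which differentiating cells also raise, was at 21.8 and 15.2 FPKM in WT and 4.77 and 8.81 in Asxl1-/-, means of 18.5 ± 4.66 and 6.79 ± 2.86 (SD, n = 2 each). Both Asxl1-/- libraries lay well below both WT libraries. On the log2 scale the difference was -1.35 ± 0.37 (standard error; limma adjusted p = 0.552), and from -1.73 to -0.97 with 1 library left out, a sign that groups apart fix. In the authors' deposited table its log2 fold change is -1.32, with a p of 0.0119 and a q of 0.339, the lowest q among the members. Ankrd37, a small ankyrin protein and sensitive HIF reporter, was on the higher side, at 1.75 and 0.688 FPKM in WT and 1.92 and 4.19 in Asxl1-/-. Asxl1-/- replicate 1 barely exceeded WT replicate 1, and the log2 fold change came to 0.85 ± 0.48 (standard error; limma adjusted p = 0.686). Without Asxl1-/- replicate 2 it was 0.44. Its row overlaps that of Ufsp2 by 49 bases, so reads at that end are uncertain.

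Genes of the mitochondrial arm of the response overlapped between the groups. Pdk1, the kinase that inhibits pyruvate dehydrogenase, was at 20.3 and 10.1 FPKM in WT and 20.4 and 11.5 in Asxl1-/-. Each replicate 1 thus stood about level with the other and above both replicates 2. Bnip3, a mitophagy receptor, was at 52.9 and 22.8 FPKM in WT and 54.6 and 43.2 in Asxl1-/-. Its relative Bnip3l was at 46.8 and 38.9 FPKM in WT and 65.1 and 41.4 in Asxl1-/-. Both had positive log2 fold changes, 0.47 and 0.28, with standard errors of 0.46 and 0.32.

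The remaining members had no common direction. Ddit4, an inhibitor of mTORC1 that p53 and glucocorticoids induce as well as HIF, was at 10.1 and 51.3 FPKM in WT and 37.8 and 20.4 in Asxl1-/-, so the WT libraries lay outside both Asxl1-/- libraries. Kdm3a, a histone demethylase under HIF control, was at 21.2 and 13.7 FPKM in WT and 17.04 and 14.3 in Asxl1-/-. Ero1l, the oxidase that forms disulphide bonds in the endoplasmic reticulum, was at 17.6 and 23.7 FPKM in WT and 31.5 and 16.1 in Asxl1-/-. Car9, a surface carbonic anhydrase used as a marker of severe hypoxia, was nearly silent in all 4 libraries, at 0.175 and 0.111 FPKM in WT and 0.255 and 0.229 in Asxl1-/-, and was not tested.

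Many members also differed between the libraries of 1 genotype. Among the 20 tested glycolytic genes Asxl1-/- replicate 1 was the highest library for 10 and Asxl1-/- replicate 2 the lowest for 10, where over all genes these shares were 21.3% and 27.1%. Both held at once for 5, namely Gpi1, Tpi1, Gapdh, Pgk1 and Slc16a3, against 6.39% of all genes. The summed FPKM of the 22 glycolytic genes was 2787 and 2833 in WT and 3430 and 2299 in Asxl1-/-, so the Asxl1-/- libraries lay on either side of WT. Among the 13 tested other genes WT replicate 2 was the lowest library for 10, where it was lowest for 20.5% of all genes, and the count was also 10 after median ratio scaling and after setting equal sums over rows of at least 300 bp. That library had the highest macrophage marker sum (548 FPKM), and rows under 300 bp held 40.9% of its FPKM against 21.4 to 24.9% in the others; the part of either was not tested. In the libraries lowest in macrophage markers (replicate 1 of each genotype), the median log2 difference was 0.10 for glycolytic and 0.05 for other genes. The typical spread between replicates, as the median residual SD on the log2 scale, was 0.27 for glycolytic and 0.50 for other genes, against 0.30 over all genes tested.

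**Figure D4:**
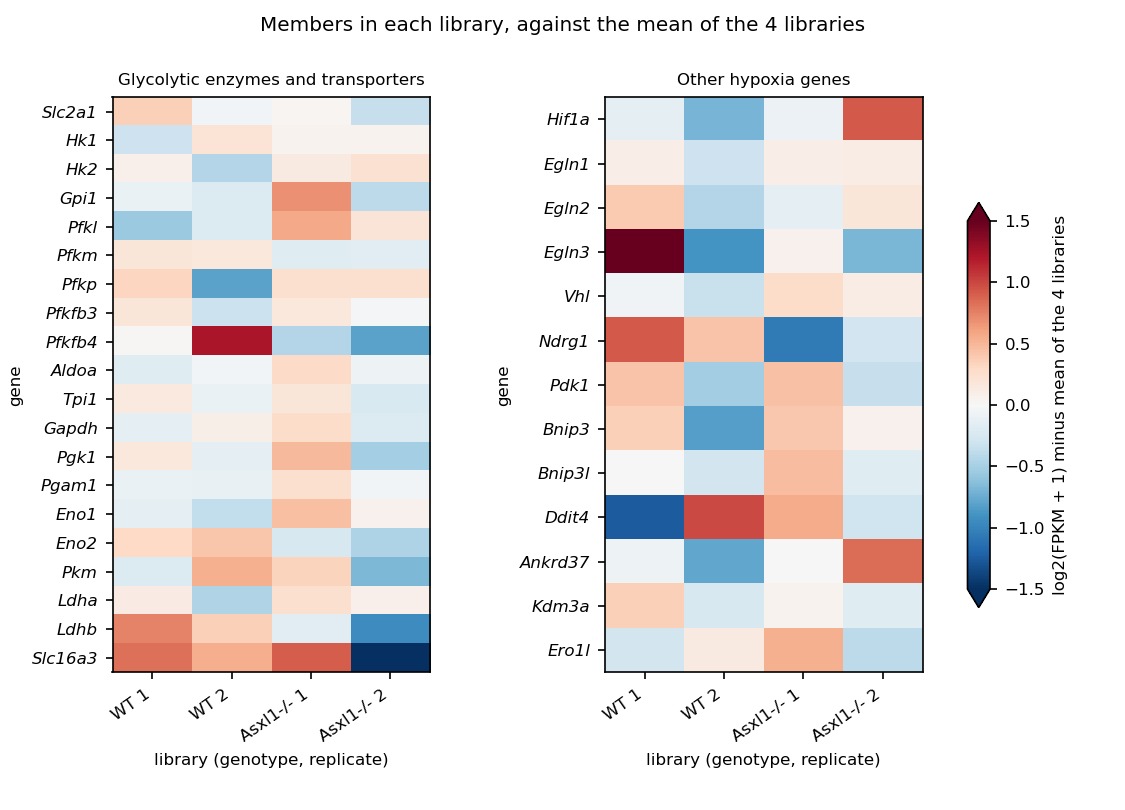
Log2(FPKM + 1) of each tested gene minus its mean over the 4 libraries, with libraries as columns and genes as rows; red is above and blue below the mean, and colours saturate beyond 1.5. Asxl1-/- replicate 1 is mostly red among the glycolytic genes and WT replicate 2 mostly blue among the other hypoxia genes. Groups lie apart for 7 genes higher in Asxl1-/-, such as Pfkl and Vhl, and for 5 lower, such as Pfkm, Ldhb, Eno2 and Ndrg1.

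Genes next to the pathway were counted in lists, of which none had a member past the adjusted limma threshold. Partners and regulators of HIF, such as Arnt and Hif1an, had a median log2 fold change of -0.02 over 15 tested genes, with 0 at an unadjusted limma p under 0.05. Other HIF targets had a median of -0.17 over 35, with 14 above 0 (40.0% against 43.2% of all genes) and 2 under that p (5.71% against 7.92%). Both were higher, namely the peptide hormone gene Adm and the collagen hydroxylase P4ha2 (log2 fold changes 2.58 and 0.99, limma adjusted p = 0.488 and 0.519). Adm is marked significant in the authors' deposited Cuffdiff results (log2 fold change 2.68, q = 0.00836), and P4ha2 is not (q = 0.394). The citric acid cycle had a median of -0.08 over 20 genes with 0 at an unadjusted limma p under 0.05. Low or tissue-restricted glycolytic isoforms had 6 of 18 genes tested and 0 under it, and gluconeogenesis 3 of 7 and 0.

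Pyruvate entry and lactate transport held 2 of 16 tested genes under an unadjusted limma p of 0.05 (12.5% against 7.92% of all genes). Both were lower, as were 5.41% of all genes at that p, and the median of this list was -0.13. Pcx, the pyruvate carboxylase that refills the citric acid cycle, was at 16.9 and 17.2 FPKM in WT and 3.47 and 3.79 in Asxl1-/-. The replicates were close and the groups far apart, a log2 fold change of -1.96 ± 0.22 (standard error; limma adjusted p = 0.353). Slc16a1 (MCT1), the lactate transporter that works beside Slc16a3, was at 20.0 and 10.9 FPKM in WT and 6.58 and 6.19 in Asxl1-/-, a log2 fold change of -1.10 with a standard error of 0.35 (limma adjusted p = 0.581). The pentose phosphate pathway, which branches off after hexokinase, held 2 of 8 under that p. H6pd, its enzyme in the endoplasmic reticulum, was at 16.1 and 10.1 FPKM in WT and 67.3 and 32.4 in Asxl1-/- (log2 fold change 1.79, standard error 0.45, limma adjusted p = 0.543), and is marked significant in the authors' deposited table (q = 0.00836). Rpia, the ribose phosphate isomerase, was at 9.91 and 7.15 FPKM in WT and 4.31 and 4.83 in Asxl1-/- (log2 fold change -0.76, standard error 0.27, limma adjusted p = 0.613).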

How the data were processed

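RNA sequencing of 2 WT and 2 Asxl1-/- MSPC libraries was used as processed by the authors on mm10. Per the submitters' processing notes the tools were TopHat2 2.0.3, Cufflinks 2.2.1 and Cuffdiff. For annotation, library kit and strand nothing is given in the sources used here. Per the file headers, the deposited FPKM come from 1 Cufflinks run per library, and 2 further columns that match no sample were not used. The authors' deposited Cuffdiff table gives group FPKM, a log2 fold change, a p-value and a q-value. Read depth is unknown, so values carry no counting interval. Replicates were numbered in accession order, which pairs no samples.

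For each symbol the row with the highest mean was kept; each of the 37 members had 1 row. The 11481 genes averaging 1 FPKM or more entered limma 3.58.1 in R 4.3.3 (lmFit, then eBayes with trend, two-sided) on log2(FPKM + 1), and p-values were adjusted over all of them by the Benjamini-Hochberg method. Deviations are from the mean of the 4 libraries on that scale. Fits were tested on simulated data. Gene starts are the file's plus 1. Summaries and plots used Python 3.11.15. The members and lists were chosen with earlier results of these data known, so lists carry counts and medians and no test. Members with an unadjusted p under 0.05, or with groups apart and an absolute log2 fold change of at least 0.5, have full statistics, and up to 4 genes of each other list with such a p and groups apart are named. Alternatives were a pseudocount of 0.1 or 0.5, dropping the filter or raising it to 5 FPKM, 3 rescalings, chromosome medians removed, rows of a symbol summed, eBayes without trend or robust, and each library left out; for list medians, also the library lowest in macrophage markers of each group alone.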

Additional observations from a re-analysis of the deposited data

How the results depend on the processing

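Under the 15 alternatives the count of members past an adjusted p of 0.05 was 0 each time (limma), with adjusted p from 0.418 upward. Of the 33 tested members 2 (Tpi1 and Pgk1) changed sign under a rescaling, 5 with chromosome medians removed (these 2, Hk1, Ddit4 and Kdm3a) and 17 with 1 library left out. The count of members higher at an unadjusted p under 0.05 was 1; it was 2 with chromosome medians removed, 0 with eBayes without trend, and 0 to 2 with 1 library left out. The count lower was 3, 2 with chromosome medians removed and 1 to 2 with 1 library left out. With 1 library left out the glycolytic median ran from -0.21 (without Asxl1-/- replicate 1; -0.03 without WT replicate 2) to 0.27, and that of the other genes from -0.0419 (without Asxl1-/- replicate 1) to 0.459. Medians of the 7 other lists moved by more than their replicate spread in 25 of 112 settings. With 1 library left out, the lone sample is assumed to vary like the other group. The cause of these shifts was not tested. No paired analysis was possible because the replicate numbers follow accession order and the labels pair no samples. Unknown read depth leaves the precision of rows under 1 FPKM unmeasured.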

Other observations

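Rows of other genes overlapped those of 5 members, and with the strandedness not given the reads in the shared stretches cannot be assigned. The largest overlap was that of Hk1 with Hk1os, 9260 bases, where Hk1os was at 1.53 and 0.119 FPKM in WT and 1.71 and 0.368 in Asxl1-/-. Pfkp shares 276 bases with Pitrm1, which was at 55.8 and 28.3 FPKM in WT and 23.3 and 19.2 in Asxl1-/-, and Pfkm shares 981 bases with Senp1. The endothelial cadherin gene Cdh5 was at 7.11 FPKM in Asxl1-/- replicate 2 and at most 0.01 in the other libraries. Tek was also highest in Asxl1-/- replicate 2, at 0.821 FPKM against 0.0444 to 0.227. Kdr and Vwf were not, at 0.0529 and 0.17 FPKM in that library. Pecam1 was listed at 0 there, and Tie1, Emcn and Cldn5 at 0 in all 4.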
